A study of Mus musculus with 6 samples.

Results

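The genes of 10 core cleavage and polyadenylation factors were examined in mouse cortical neurons that received N40K and in neurons that received a control vector. The genes were Cpsf1, Cpsf2, Cpsf3, Cpsf4, Cpsf6, Cpsf7, Cstf1, Cstf2, Cstf3 and Pcf11, chosen by symbol as a family, and all 10 were found among the 15705 genes with a splicing deficiency (Sd) score. The N40K group was C57BL/6 cortical neurons of embryonic day 18, grown for 7 days in culture and then exposed for 3 days to the lentivirus FCK1.3GW-N40K (3 libraries). The Control group was the same kind of neuron exposed for 3 days to the vector FCK1.3GW, which carries EGFP (3 libraries). In both viruses a short CaMKII promoter, which is most active in excitatory neurons, drives the insert, and both carry the woodchuck hepatitis virus posttranscriptional regulatory element. The insert N40K is an N-terminal piece of U1-70K, a protein of the U1 snRNP, and the series asks how disturbed U1 snRNP splicing affects neurons. Separate cultures are not stated for the 3 replicates of a group, so the p-values reflect the spread between libraries, and that spread may be technical.

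The cleavage and polyadenylation machinery cuts the nascent RNA of nearly every protein-coding gene and allows the poly(A) tail to be added. CPSF recognises the AATAAA signal and makes the cut, CFIm binds upstream of it, CstF binds the GU-rich stretch downstream, and CFIIm links the cut to the end of transcription. U1 snRNP, beside its role in splicing, binds nascent RNA at 5′ splice sites and holds this machinery back from signals inside introns, an activity called telescripting. Some factors of the machinery are themselves known to have short transcripts made by cleavage inside an intron, Cstf3 and Pcf11 among them.

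U1 recognises the start of an intron by base pairing through the 5′ end of its RNA. The start of that RNA is shown because each splice site given later was compared with it; capitals mark bases 3 to 11, which pair with the site. The sequence comes from the GENCODE M21 transcripts (gene Rnu1b1, chromosome 3), which are on build GRCm38, and the second line is its reverse complement over bases 3 to 11.
U1 snRNA, first 11 bases: atACTTACCTG
Site that pairs with bases 3 to 11: CAGGTAAGT

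The next sequences are a selection of 5′ splice sites of members, 5′ to 3′ on the gene's strand. They belong to introns that hold annotated ends of transcripts in genes whose score rose. The introns of Cpsf6 and Cstf2 in which an annotated transcript ends with an AATAAA signal are included. Other introns with annotated ends, in Cpsf1, Cpsf3, Cpsf6 and Cstf2, are not shown. Cstf3 intron 19 is also absent, because the transcript that ends there runs only 16 bases into it, too few for the window. Cpsf1 intron 28 is added as the closest match to U1. Each window holds 11 exon bases and 19 intron bases. Capitals mark the 9-base site, with the last 3 bases of the exon and the first 6 of the intron. They could be read only for introns that another annotated transcript of the gene runs into, 30 introns of 8 members.
Pcf11 intron 1 (chromosome 7): aaaccgccAAGGTTTTTatacaccccgcag
Pcf11 intron 13 (chromosome 7): gagcagttGAGGTAACAgaaaggtgtttca
Cstf3 intron 3 (chromosome 2): ttgaagcaGAGGTTAATattttatttattt
Cpsf7 intron 7 (chromosome 19): agctagtgCAGGTAATAaactcttacttta
Cpsf7 intron 9 (chromosome 19): cactgagaAAGGTGGGAacgaagccctgtt
Cpsf6 intron 9 (chromosome 10): atcgttagAAGGTGGGCattcctttttatt
Cstf2 intron 11 (chromosome X): gatccagaCAGGTAATGcttgtagcatata
Cpsf1 intron 28 (chromosome 15): cccaatgcCAGGTAAGGgtgaatctagcag

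All 30 sites began the intron with GT. The site of Pcf11 intron 1 matched the U1-pairing sequence at 5 of 9 bases, that of Cstf3 intron 3 at 6 and that of Cstf2 intron 11 at 7. Cpsf1 intron 28, at 8 of 9, was the closest match among the 30. Of the 30 sites, 21 matched at 6 or more bases and 9 at 7 or more, while 77.2% and 38.7% of 22370 sites read in the same way from all protein-coding genes did so. Cpsf1 gave more of the 30 sites than any other member, so these counts weigh towards that gene. These matches describe the letters of the sites, and U1 binding was not measured.

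The score is the authors' ratio for a gene in a library, with a higher value read here as less complete splicing. It is not an expression level, and a higher score may come from more unspliced RNA or from less spliced RNA. The number of reads behind it is unknown. Scores were compared as log2(score + 0.01) with limma over all 15705 genes, and "rose" and "fell" are used for a Benjamini-Hochberg adjusted p under 0.05. With this pseudocount the log2 change of a gene with low scores comes out too small, and the ratio of group means is therefore given as well.

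Of the 10 genes, 3 rose with N40K, 0 fell and 7 did not pass. The 3 were Pcf11, Cstf3 and Cpsf7, with ratios of mean scores of 2.74, 1.67 and 1.65. Among all 15705 genes 21.5% rose and 4.11% fell, so the share of members that rose was close to the background. The 3 N40K scores were all higher than the 3 Control scores for 5 members (33.6% of all genes) and all lower for 1 member (8.67% of all genes). The median log2 change was 0.14 over the 10 members and 0.06 over all genes. At an unadjusted threshold of 0.05 in limma 4 members were higher (these 3 and Cpsf6) and 1 was lower (Cstf2), where 31.2% of all genes were higher and 7.32% lower.

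**Figure D1:**
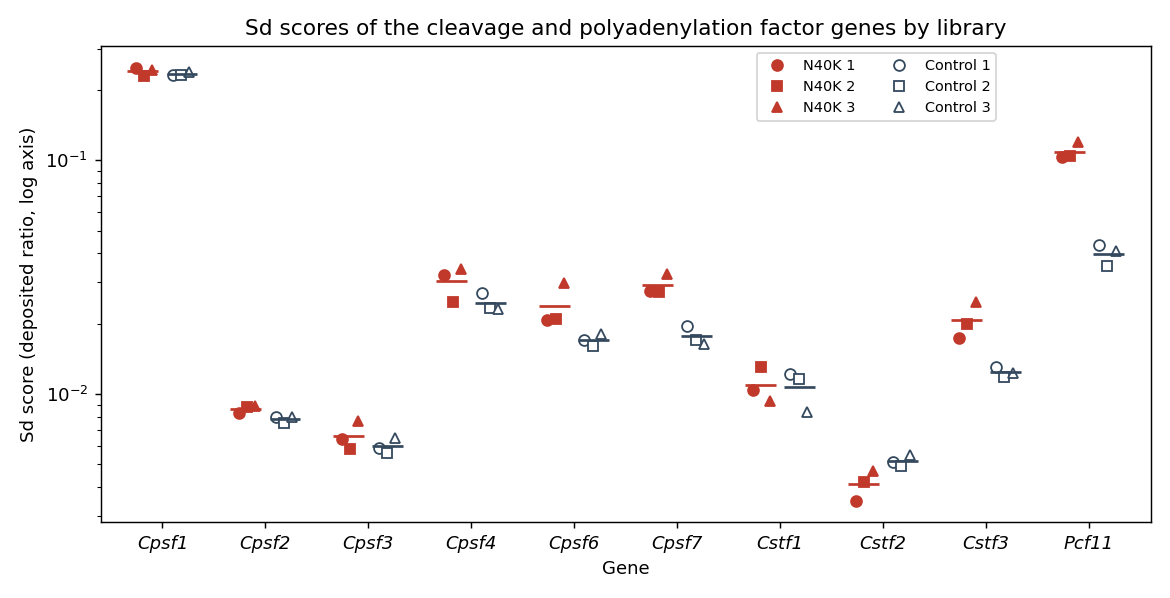
Deposited Sd score of each of the 10 genes in each library on a log axis, with N40K libraries filled and Control libraries open; horizontal lines are group means of 3 libraries. For Pcf11 the N40K libraries lie between 0.103 and 0.119, above the Control libraries at 0.0353 to 0.0432, while for Cpsf1 and Cstf1 the groups overlap.

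Pcf11 encodes the large subunit of CFIIm, which binds the tail of RNA polymerase II and takes part in termination as well as cleavage. Its score was 0.1029, 0.1048 and 0.1193 in the N40K libraries, against 0.0432, 0.0353 and 0.0410 in the Control libraries. The lowest N40K score was more than 2 times the highest Control score. The mean was 0.109 ± 0.00897 in N40K neurons and 0.0398 ± 0.00408 in Control neurons (SD, n = 3 each), a log2 change of 1.26 ± 0.10 (SE, limma adjusted p = 0.002). By p-value Pcf11 ranked 125 among the 15705 genes, and its log2 change stood at the 98.8th percentile. With any 1 library left out its log2 change was 1.19 to 1.31 and it still passed. By annotation Pcf11 overlaps the antisense gene Gm26944 and the unclassified transcript 6430511E19Rik on the other strand.

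Cstf3 encodes the scaffold subunit of CstF, which pairs with itself and bridges the other subunits to CPSF. Its score was 0.0174, 0.0199 and 0.0248 in the N40K libraries, against 0.0131, 0.0118 and 0.0123 in the Control libraries. The groups did not overlap, and N40K replicate 3 was the highest. The mean was 0.0207 ± 0.00376 in N40K neurons and 0.0124 ± 0.000656 in Control neurons (SD, n = 3 each), a log2 change of 0.45 ± 0.10 (SE, limma adjusted p = 0.0229). The call ended without N40K replicate 2 (limma adjusted p = 0.0629) and without Control replicate 1, 2 or 3 (0.0611, 0.0774 and 0.076). Its log2 change with a library left out lay between 0.35 and 0.53. Cstf3 overlaps Tcp11l1 on the other strand, whose score ratio was 1.11 (limma adjusted p = 0.406).

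Neither of the other CstF subunit genes passed. Cstf2 encodes the subunit that binds the GU-rich element, and its score was 0.0035, 0.0042 and 0.0047 in the N40K libraries, against 0.0051, 0.0049 and 0.0055 in the Control libraries. All N40K values lay below all Control values. The means were 0.00413 ± 0.000603 in N40K neurons and 0.00517 ± 0.000306 in Control neurons (SD, n = 3 each), a ratio of 0.8, and the change did not pass (limma adjusted p = 0.0991). Cstf2 passed as a fall after each of 3 scalings between libraries. Its limma adjusted p was 0.00473 with libraries centred on their medians, 0.00706 after quantile normalization and 0.0115 with centring on the median deviation. Of all genes 18.4%, 12% and 9.67% fell under these scalings. At its low scores the pseudocount makes the change small, -0.10 (log2) against -0.33 without it. Centring on medians took the same amount from every gene and made it -0.23. The filter on the lowest 25% of genes removed Cstf2. Cstf1 encodes the WD-repeat subunit; its score was 0.0104, 0.0130 and 0.0093 in the N40K libraries, against 0.0122, 0.0116 and 0.0084 in the Control libraries. The Cstf1 groups overlapped (ratio 1.02, limma adjusted p = 0.946), and its 95% interval on the log2 scale ran from -0.23 to 0.26.

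A ratio of genes within a library does not change when all scores of the library are multiplied by the same factor, though it does under quantile normalization. The score of Cstf3 divided by that of Cstf2 was 4.97, 4.74 and 5.28 in the N40K libraries, against 2.57, 2.41 and 2.24 in the Control libraries. The score of Pcf11 divided by that of Cpsf1 was 0.413, 0.456 and 0.491 in the N40K libraries, against 0.187, 0.152 and 0.172 in the Control libraries. Neither ratio overlapped between groups. These pairs were chosen after their values were seen, so no test is given. Such a ratio shows unequal change of its genes and not which of them changed.

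CFIm is built from Nudt21 with Cpsf6 or Cpsf7, larger subunits with an RNA recognition motif and a tail rich in arginine and serine. Cpsf7 scored 0.0277, 0.0274 and 0.0326 in the N40K libraries, against 0.0196, 0.0171 and 0.0163 in the Control libraries. Its mean was 0.0292 ± 0.00292 in N40K neurons and 0.0177 ± 0.00172 in Control neurons (SD, n = 3 each), a log2 change of 0.50 ± 0.08 (SE, limma adjusted p = 0.0111). The groups were apart, and the call held with each library left out in turn (highest limma adjusted p = 0.0463).

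Cpsf7 overlaps Sdhaf2 and Tmem216 on the other strand. Sdhaf2, a mitochondrial assembly factor gene, rose by a ratio of 1.27 (limma adjusted p = 0.0404), and Tmem216 had a ratio of 1.25 (0.079). Whether the authors' counting used strand is not given in the sources used here, so whether reads of these genes entered the score of Cpsf7 is unknown.

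Cpsf6 scored 0.0207, 0.0210 and 0.0298 in the N40K libraries, against 0.0171, 0.0160 and 0.0181 in the Control libraries. All N40K values lay above all Control values, with N40K replicate 3 well above the other two. The means were 0.0238 ± 0.00517 in N40K neurons and 0.0171 ± 0.00105 in Control neurons (SD, n = 3 each), a ratio of 1.40, and the change did not pass (limma adjusted p = 0.104; log2 change 0.31, 95% interval 0.03 to 0.60). Without N40K replicate 3 its log2 change was 0.19. Cpsf6 overlaps no other annotated gene. Nudt21, which encodes their common small subunit that binds UGUA, had mean scores of 0.00383 ± 0.000651 in N40K neurons and 0.00393 ± 0.000153 in Control neurons (SD, n = 3 each; limma adjusted p = 0.861).

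None of the 4 CPSF genes passed. Cpsf4 encodes the zinc finger subunit that contacts the AATAAA signal together with Wdr33. Its score was 0.0324, 0.0248 and 0.0342 in the N40K libraries, against 0.0271, 0.0234 and 0.0232 in the Control libraries. The groups overlapped through N40K replicate 2, with a ratio of 1.24 (limma adjusted p = 0.205).

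Cpsf3 encodes the endonuclease itself and Cpsf2 its catalytically inactive partner. Cpsf3 scored 0.0064, 0.0058 and 0.0077 in the N40K libraries, against 0.0059, 0.0056 and 0.0065 in the Control libraries, and the groups overlapped. Cpsf2 scored 0.0083, 0.0088 and 0.0089 in the N40K libraries, against 0.0080, 0.0075 and 0.0080 in the Control libraries. Here the N40K values were all higher, by a small margin. Both genes had a ratio of 1.11, with limma adjusted p = 0.483 for Cpsf3 and 0.216 for Cpsf2. Cpsf3 overlaps Itgb1bp1 on the other strand, which rose by a ratio of 1.32 (limma adjusted p = 0.0372).

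Cpsf1 encodes the largest CPSF subunit, a scaffold that holds Cpsf4 and Wdr33. It had the highest scores of the family, 0.2492, 0.2300 and 0.2432 in the N40K libraries, against 0.2308, 0.2315 and 0.2389 in the Control libraries. The groups overlapped (ratio 1.03, limma adjusted p = 0.749), and the 95% interval of the log2 change was -0.14 to 0.23. Its mean Control score stood at the 91.5th percentile of all genes, while the other 9 members lay between the 28th percentile (Cstf2) and the 71.7th (Pcf11). Cpsf1 also had the most introns of the family, 36, of which 12 are kept whole in an annotated transcript.

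**Figure D2:**
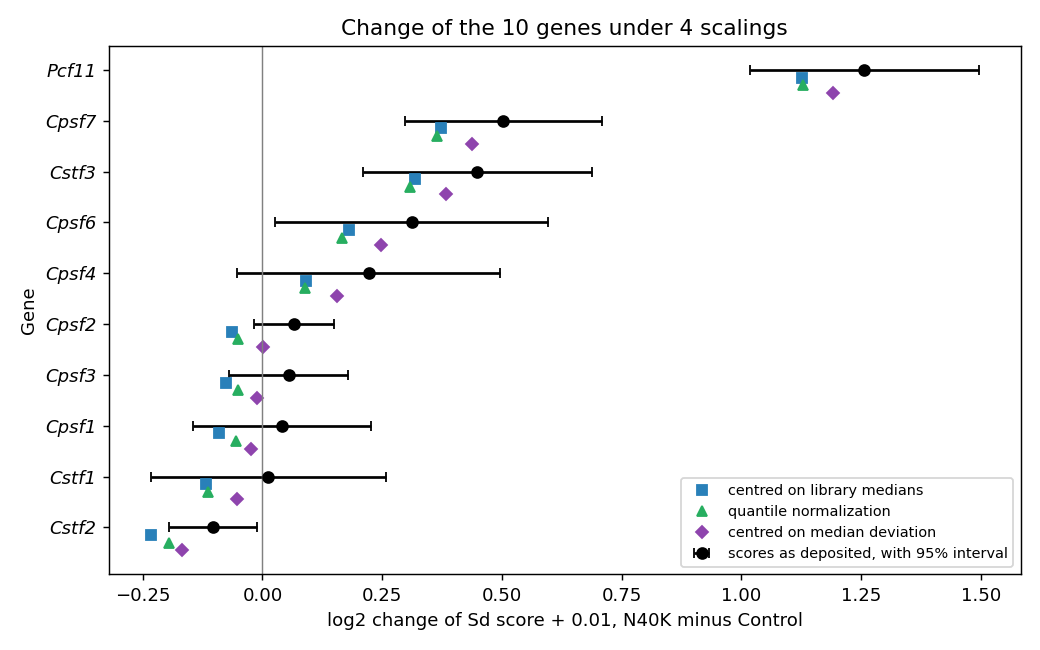
log2 change of score + 0.01, N40K minus Control, for the 10 genes; black points with bars are scores as deposited with their 95% intervals, and coloured points are the same change after 3 scalings between libraries. Pcf11, Cpsf7 and Cstf3 stay above 0 under all 4, while Cpsf1, Cpsf3 and Cstf1 turn from slightly above 0 to below 0 under all 3 scalings.

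Scaling between libraries moved the small changes but not the calls of the 3 genes that rose. Library medians were 0.0146 to 0.0163 in N40K neurons and 0.0127 to 0.0136 in Control neurons over all genes. Centring the libraries on these medians, on the scale of log2(score + 0.01), lowered every change by 0.13 (log2). The pseudocount makes the changes of low-score genes small, so this shift weighs more on them. After that centring Pcf11, Cpsf7 and Cstf3 changed by 1.13, 0.37 and 0.32 and still passed (limma adjusted p = 0.00176, 0.014 and 0.0259), while 9.75% of all genes rose and 18.4% fell. They also passed after quantile normalization, where 12.9% of all genes rose and 12% fell, and with centring on the median deviation, where 14.2% rose and 9.67% fell. The fall of Cstf2 is the only call that these scalings added among the members. N40K replicate 3 was the highest N40K library for 8 of the 10 members, and for 48.4% of all genes. Its part in the result was not tested beyond leaving it out, when the same 3 genes rose.

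The members differ in gene structure, taken from GENCODE M21 on build GRCm38 by Ensembl gene identifier. The submitters' processing notes name mm9, so no coordinates are given. Gene length ran from 11.8 kb for Cstf1 and Cpsf1 to 74.9 kb for Cstf3, against a median of 27.4 kb over 13687 scored genes with a protein-coding transcript. Across the 10 members the log2 change correlated with gene length with a Spearman rho of 0.321, with the number of introns with 0.079 and with the longest intron with 0.467. Its rho with the mean Control score was larger, 0.515, and the pseudocount makes the changes of low-score genes small. With 10 genes measured in the same libraries these are descriptions only. Pcf11, with the largest change, is 26.4 kb long with 15 introns, near the median in length. Cstf3 has the longest intron of the family, intron 3 with 35102 bases.

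For 4 members the annotation holds a transcript that ends inside an intron of the full-length transcript with the AATAAA signal, which CPSF recognises, in its last 30 bases. These ends are shown because telescripting concerns signals of this kind; capitals mark the signal.
Pcf11-205, end in intron 1 (chromosome 7): aaaatttgtgAATAAAacatataaaatatg
Cstf3-202, end in intron 3 (chromosome 2): gaaAATAAAgctttgttaatacgttgttgt
Cpsf6-208, end in intron 9 (chromosome 10): tggAATAAAtggactaagaagtacttcacc
Cstf2-202, end in intron 11 (chromosome X): atatagAATAAAaatgtattttctgttgta

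Pcf11-205 is a single exon of 1720 bases that runs from the first exon 1245 bases into intron 1. Cstf3-202 runs 2220 bases into intron 3. Cpsf6-208 and Cstf2-202 end later in their genes, in the last intron of Cpsf6 and 1058 bases into intron 11 of 13 in Cstf2. A further 2 Cstf3 transcripts and 2 Pcf11 transcripts end in introns with no AATAAA in these bases. Variants of AATAAA were not searched. Of the 4 genes, Pcf11 and Cstf3 rose and the other two did not pass, with ratios of 1.40 for Cpsf6 and 0.8 for Cstf2. Such an end is annotated for 15.4% of 13687 scored genes, and 33.1% of those genes rose, so nothing particular to the 4 genes can be read from their count. The signal is in the last 30 bases of 6 of the 10 full-length member transcripts and of 50.9% of those of all protein-coding genes. The deposited score gives 1 value a gene, so RNA that ends inside an intron was not measured apart from RNA that keeps a whole intron.

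**Figure D3:**
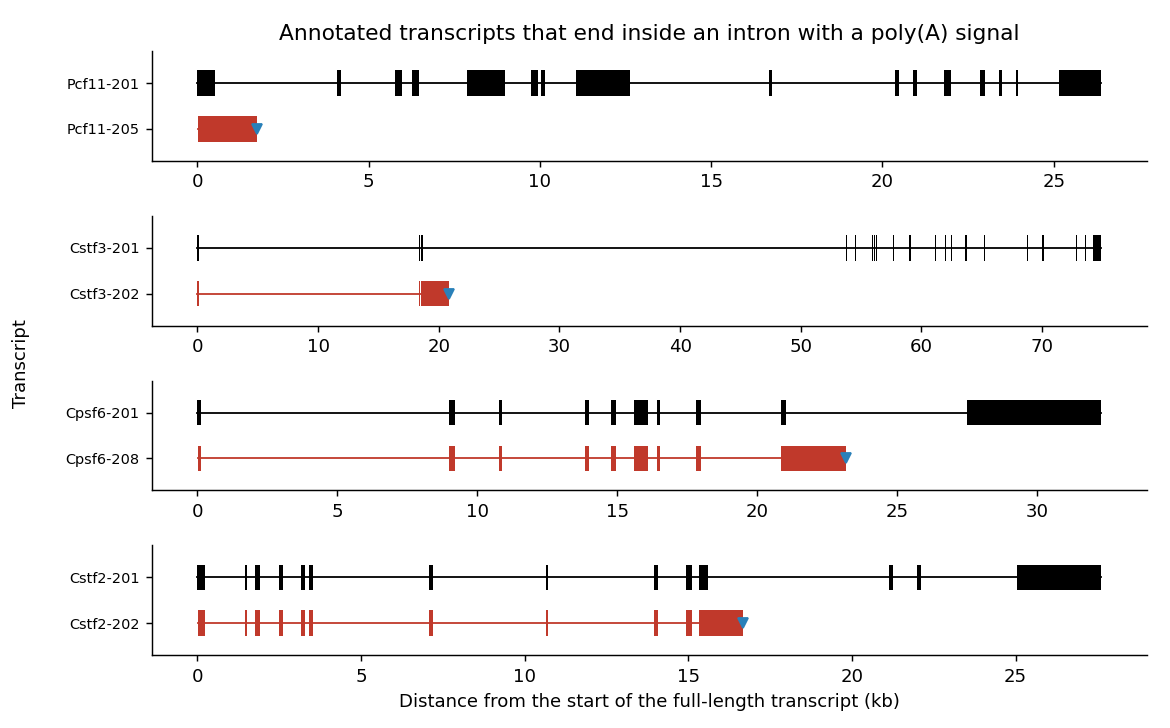
Full-length transcripts (black) and transcripts that end inside an intron with a poly(A) signal (red) of Pcf11, Cstf3, Cpsf6 and Cstf2, drawn to scale as distance in kb from the start of the full-length transcript; boxes are exons and blue triangles mark the intronic ends. The end of Pcf11-205 lies 1.75 kb and that of Cstf3-202 20.9 kb from the start.

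Other genes of 3′ end processing, from a list of 20 of which 17 were found by symbol, gave 5 rises and 1 fall. The other 11 did not pass, and the median log2 change was 0.03. The share that rose was near the 21.5% of all genes that rose, and 4.11% of all genes fell. Symplekin (searched as Symplk), Papolb and Cstf2t were not found under the symbols searched and were not analysed. Whether they have a score under another symbol is unknown. The rises included both subunits beside Cpsf4 that recognise the signal or hold the poly(A) polymerase. Wdr33 scored 0.0170, 0.0204 and 0.0217 in the N40K libraries, against 0.0137, 0.0129 and 0.0127 in the Control libraries (limma adjusted p = 0.0206). Fip1l1, which tethers the polymerase, rose by a ratio of 1.33 (0.0464).

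The poly(A) polymerase genes Papola and Papolg rose by ratios of 1.53 and 1.53 (limma adjusted p = 0.0125 and 0.0142). Ppp1cb, a catalytic subunit of protein phosphatase 1, rose by a ratio of 2.15 (0.00269), with mean scores of 0.00243 in N40K neurons and 0.00113 in Control neurons. The fall was in Cpsf4l, a relative of Cpsf4, with mean scores of 0.459 ± 0.0298 in N40K neurons and 0.619 ± 0.0379 in Control neurons (SD, n = 3 each; 0.0255). Nearest to passing among the others were Tox4 and Wdr82 of the protein phosphatase 1 complex and Tut1, with ratios of 1.22, 0.934 and 1.08 (limma adjusted p = 0.181, 0.483 and 0.573). With libraries centred on their medians 3 of the 17 rose and 2 fell, where 9.75% of all genes rose and 18.4% fell. The calls of Fip1l1 and Ppp1cb then ended (limma adjusted p = 0.532 and 0.49). For Ppp1cb, with its low scores, the log2 change before centring was only 0.16 beside its ratio of 2.15. Fip1l1 also lost its call without any library other than N40K replicate 1 (highest limma adjusted p = 0.129). Wdr33 and Cpsf4l likewise lost theirs without any library other than N40K replicate 1 (highest limma adjusted p = 0.073 and 0.0831). Papola lost its call without Control replicate 2 or 3 (highest 0.0508), and Papolg without Control replicate 1 or 2 (highest 0.0553).

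Genes of transcription termination and poly(A) site choice gave 8 rises and 0 falls among 21, with a median log2 change of 0.15, where 21.5% of all genes rose and 4.11% fell with a median of 0.06. Rprd2, one of a family of proteins that bind the polymerase tail as Pcf11 does, scored 0.0104, 0.0143 and 0.0167 in the N40K libraries, against 0.0033, 0.0037 and 0.0031 in the Control libraries. All N40K values exceeded all Control values, with a ratio of 4.10 (limma adjusted p = 0.00489). The tail-binding genes Rprd1a and Scaf8 rose by ratios of 1.58 and 2.34 (0.00853 and 0.00392), and Phf3 by 1.63 (0.0226).

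Cdk13, a kinase of the polymerase tail, rose by a ratio of 1.76 (limma adjusted p = 0.0187). Xrn2, the exonuclease that degrades the RNA left after cleavage, rose by 1.25 (0.0283), Skiv2l2, the nuclear exosome helicase, by 1.49 (0.0497) and Cpeb1, a regulator of poly(A) tails, by 1.47 (0.0274). Scaf4, Rprd1b and Ccnk were nearest to passing, with ratios of 1.28, 1.26 and 1.31 (0.0816, 0.117 and 0.126). Scaf4 and Rprd1b are tail-binding genes too, so not every gene of that kind on the list rose. Cdk12, known for its role in holding back cleavage inside introns, had mean scores of 0.00717 ± 0.00129 in N40K neurons and 0.0055 ± 0.000954 in Control neurons (SD, n = 3 each; 0.198). With libraries centred on their medians 4 of the 21 rose and 2 fell, where 9.75% of all genes rose and 18.4% fell. The calls of Xrn2, Phf3, Cpeb1 and Skiv2l2 ended, and the direction of Skiv2l2 turned (log2 change -0.01). That centring takes the same amount from log2(score + 0.01) of every gene. Before it the log2 change of Skiv2l2 was 0.12 with this pseudocount and 0.56 without it. Centring without the pseudocount was not tested. Without Control replicates 1, 2 and 3 in turn 4, 3 and 3 of the 21 rose, where 12.9%, 10.3% and 10.4% of all genes rose. Without N40K replicate 2 or 3, 5 of the 21 rose, where 13.3% and 15.1% of all genes rose. Rprd2, Rprd1a and Scaf8 passed with each library left out in turn. Cdk13 lost its call without N40K replicate 2 or any Control library, Phf3 without any Control library, and Cpeb1 without N40K replicate 2 or 3 or Control replicate 2 or 3 (highest limma adjusted p = 0.0649, 0.0785 and 0.0924). Xrn2 lost it without any library other than N40K replicate 1 and Skiv2l2 without any other than N40K replicate 2 (highest 0.0994 and 0.143).

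**Figure D4:**
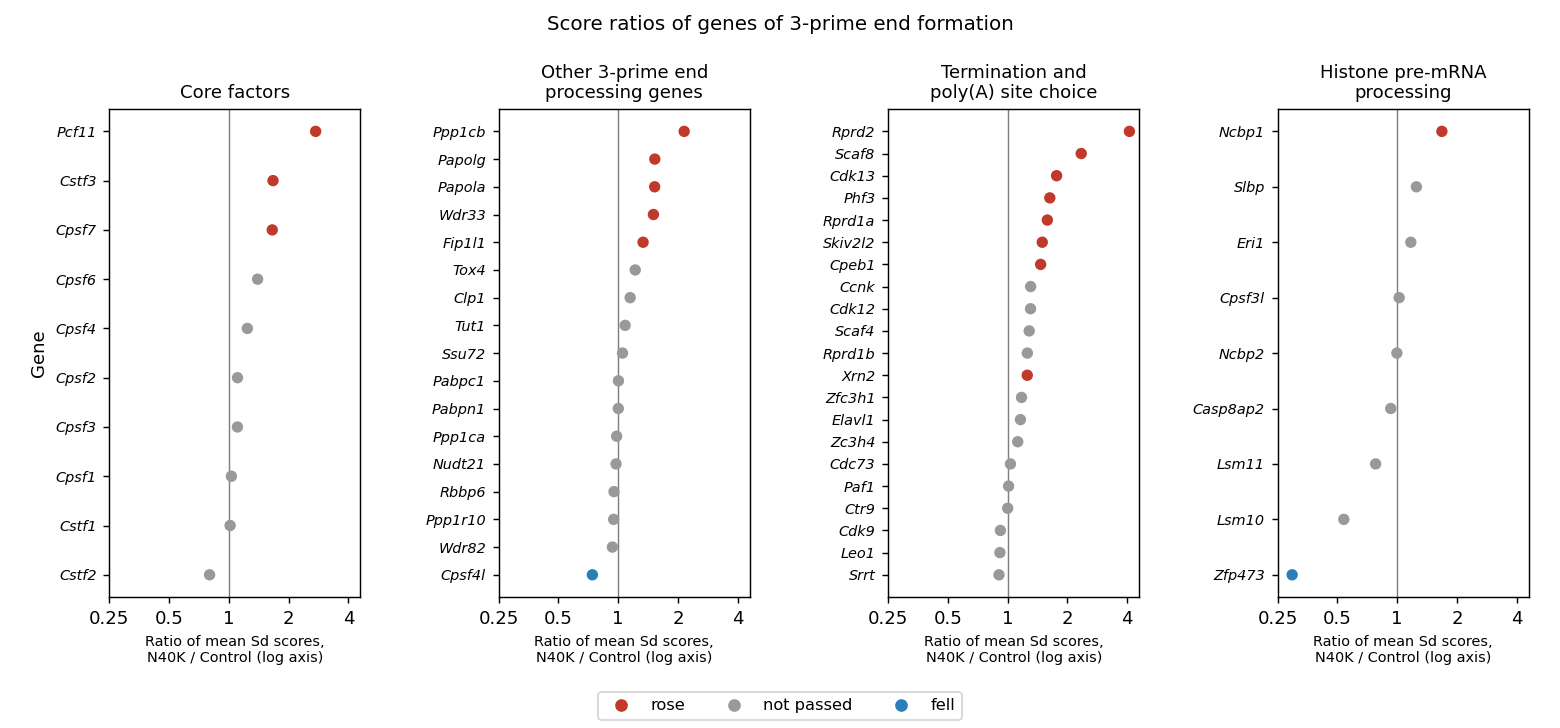
Ratio of mean Sd scores, N40K over Control, on a log axis for the 10 core factors and 3 lists of related genes, each point 1 gene measured in 3 libraries a group; red genes rose, blue genes fell and grey genes did not pass with scores as deposited. The largest ratio is 4.10 for Rprd2 and the smallest 0.296 for Zfp473; with libraries centred on their medians Skiv2l2 turns in direction.

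Histone RNAs are cut without a poly(A) tail by a separate machinery that shares the endonuclease Cpsf3. Of 9 genes listed for that pathway 1 rose, 1 fell and 7 did not pass, with a median log2 change of -0.00262. Among all genes 21.5% rose and 4.11% fell. The 7 include Cpsf3l, whose product belongs to the Integrator complex and not to the histone machinery. Zfp473, a zinc finger protein of the histone complex in human cells, had mean scores of 0.0363 ± 0.0157 in N40K neurons and 0.123 ± 0.00416 in Control neurons (SD, n = 3 each), a ratio of 0.296 (limma adjusted p = 0.00747). Its N40K scores were 0.0270, 0.0275 and 0.0544, against 0.1248, 0.1252 and 0.1178 in Control neurons, so N40K replicate 3 stood closest to Control. Ncbp1, the large cap-binding subunit, rose by a ratio of 1.68 (0.0149) but did not pass without Control replicate 2 or 3 (0.0578 and 0.0569). Lsm11, Lsm10 and Slbp were nearest to passing (0.171, 0.236 and 0.553). With libraries centred on their medians 1 of the 9 rose and 2 fell, where 9.75% of all genes rose and 18.4% fell.

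Snrnp70, the gene of U1-70K, had mean scores of 0.0233 ± 0.000902 in N40K neurons and 0.0216 ± 0.000656 in Control neurons (SD, n = 3 each; limma adjusted p = 0.376); the scores give no level of N40K. The deposited scores do not measure cell types. All 8 neuron markers and all 8 astrocyte markers had a score, as did 5 of 8 oligodendrocyte lineage and 4 of 8 microglia markers. Of these, 0 neuron markers passed the test, 1 astrocyte and 2 microglia markers rose, and 1 oligodendrocyte marker fell, where 21.5% of all genes rose and 4.11% fell. Their part in the results on the cleavage factors was not tested.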

How the data were processed

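Poly(A) RNA of 6 libraries was sequenced as stranded paired reads, per the labels' protocols. The authors deposited 1 table of Sd scores, read as linear ratio values with 4 decimals, the lowest 0.0001. Tools named in the submitters' processing notes are STAR, BWA, CASAVA and bedtools (version 2.16.1), without their roles, and the build there is mm9. Read depth is unknown, and how the score was calculated, filtered and assigned by strand is not given in the sources used here.

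Columns were assigned to libraries by name, with 0 left unused. The test was a 2-sided limma fit (version 3.58.1, R 4.3.3, eBayes with trend) of log2(score + 0.01) over all 15705 genes. A filter for scores above 0 in at least 3 libraries removed no gene. The fit was tested on simulated data. Named genes were the 10 members, called genes of the related lists, up to 3 uncalled genes nearest the threshold in each list, and Snrnp70. Nudt21, Cdk12 and genes that overlap members were added after their values were seen. The overlaps described are not complete. By annotation Cpsf1 also overlaps Adck5, Cpsf2 overlaps Ndufb1-ps and Cstf2 overlaps Nox1, all on the other strand. On the same strand Cpsf3 overlaps the snoRNA Gm25821 and Cstf2 the microRNA Mir3112. Scores of these genes were not examined. A further gene of the termination list is not reported here. Members and lists were chosen with earlier results of these data known. Gene structures and sequences came from GENCODE M21, matched for 14911 genes. The reference transcript was the longest principal protein-coding one. Alternatives covered pseudocounts, filters, scaling, trend, the replicate block and leaving out each library.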

Additional observations from a re-analysis of the deposited data

How the results depend on the processing

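Among the members, Pcf11 kept its direction and its call under all 16 alternatives (log2 change 0.58 to 1.45), and Cpsf7 under all but the replicate block. The labels do not say whether replicate numbers pair the libraries. Deviations of same-numbered libraries correlated at -0.0712, 0.0376 and -0.0201, so no shared deviation was seen. Whether such libraries shared a culture or batch cannot be told from these values. With the replicate block 1 member rose (adjusted p = 0.0517 for Cpsf7 and 0.0634 for Cstf3), 1770 genes rose and 328 fell, and in the related lists 8 rose and 1 fell. With a library left out 2 to 3 members rose, 1613 to 3729 genes rose and 303 to 486 fell, and 4 to 13 genes of the related lists rose and 1 to 2 fell, against 14 and 2 with all libraries. Members called lower were 1 (Cstf2) with libraries centred on their medians, after quantile normalization and with centring on the median deviation, where 1531, 2022 and 2235 genes rose and 2883, 1883 and 1518 fell. Centring on medians left 8 rises and 6 falls in the related lists, and quantile normalization 4 falls. Without the lowest 25% of genes 1968 genes rose, 9 of them in the related lists. The replicate block kept every gene, library and log2 change but fitted more terms, so fewer degrees of freedom remained for the spread. The other filters and fits of this paragraph test fewer genes or samples or shift all genes. Otherwise the cause was not tested. Directions turned with libraries centred on their medians for Cpsf1, Cpsf2, Cpsf3, Cstf1, Skiv2l2 and Snrnp70 (-0.0897, -0.0645, -0.0756, -0.118, -0.00706 and -0.0535). These are changes of log2(score + 0.01), which the pseudocount makes small for low-score genes such as Skiv2l2 (0.56 without pseudocount or centring). They turned after quantile normalization for Cpsf1, Cpsf2, Cpsf3, Cstf1 and Snrnp70 (-0.0556, -0.0503, -0.0506, -0.113 and -0.0627), and with centring on the median deviation for Cpsf1, Cpsf3 and Cstf1 (-0.0248, -0.0107 and -0.053). With a library left out Cstf1 lay between -0.0712 and 0.068, below 0 without N40K replicate 2 or Control replicate 3. None of the members that turned had passed.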

Other observations

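Over all scored genes with a protein-coding transcript, 2112 had an annotated transcript that ends inside an intron with AATAAA in its last 30 bases. Of these 33.1% rose and 2.89% fell, against 21.2% and 4.19% of the 11575 genes without such an end. Their median gene length was 61.7 kb, against 23.9 kb for the others. The part of gene length in this difference was not tested.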
